A study of Homo sapiens with 4 samples.

Results

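A set of 9 human genes that detect foreign or misplaced nucleic acid and pass the signal on to interferon responses were followed through the H3K27ac peak lists: CGAS and STING1 of the DNA-sensing branch, IFIH1, RIGI and MAVS of the RNA-sensing branch, and the transcription factors IRF3, IRF1, STAT2 and IRF9. They were chosen by name from 20149 annotated protein-coding genes, and each peak within their gene bodies extended by 10 kb on each side was taken. The cells were K562, an established human erythroleukaemia line, and the mark was acetylation of lysine 27 of histone H3, found at active promoters and enhancers. One library carried a control shRNA (labelled shNT) and the others each carried a different shRNA against TFAM, the packaging protein and transcription factor of mitochondrial DNA (labelled TFAM-sh1 and TFAM-sh2, here hairpin 1 and hairpin 2). With 1 library and 1 peak list per group, no value below has a replicate error and no test was possible: every difference describes these libraries and not the conditions. The series asked where the mark changes across the genome when TFAM is depleted, and how far each hairpin lowered TFAM was not measured in these files.

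Cyclic GMP-AMP synthase, the product of CGAS, binds DNA in the cytosol and makes a cyclic dinucleotide that activates STING1 on the endoplasmic reticulum. RIG-I (gene RIGI) and MDA5 (gene IFIH1) bind double-stranded RNA and activate MAVS, an adaptor anchored in the outer mitochondrial membrane. Both branches lead to phosphorylation of IRF3, which switches on type I interferon genes. Secreted interferon then acts through a receptor that brings STAT2 and IRF9 into a complex on the promoters of interferon-stimulated genes, several of which encode the sensors themselves. IRF1 is an interferon-induced factor that acts on overlapping targets. Mitochondrial DNA or RNA that leaks into the cytosol is a known ligand of both branches.

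Promoter sequences bear on what follows, because peaks of different width did or did not cover short motifs known from interferon-responsive promoters. The RefSeq promoter table (GRCh38.p14, 250 bases before and 50 after the start site) held 6 of the 9 genes, namely IFIH1, RIGI, MAVS, IRF1, STAT2 and IRF9, and all 6 sequences were found once at the gene in GRCh37, the build of the peak lists. The stretches below are those of IFIH1, whose peak differed most in width, and of RIGI and IRF1, whose promoters lacked a hairpin 2 peak. They run 5′ to 3′ along the gene and end at or just before the start site. Capitals mark matches to GAAANNGAA, the core of interferon response elements (TTCNNTTTC on the other strand), or to TTCNNNGAA, the core of STAT dimer sites. IFIH1 lies at chr2:163175195-163175364, RIGI at chr9:32526207-32526356 and IRF1 at chr5:131826470-131826619 (hg19), all on the minus strand. The first 15 bases of the IFIH1 stretch are also exonic in the divergent neighbour GCA.
IFIH1: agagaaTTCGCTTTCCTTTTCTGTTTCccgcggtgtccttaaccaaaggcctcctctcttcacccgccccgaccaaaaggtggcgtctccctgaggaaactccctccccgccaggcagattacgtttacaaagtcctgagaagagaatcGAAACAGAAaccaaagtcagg
RIGI: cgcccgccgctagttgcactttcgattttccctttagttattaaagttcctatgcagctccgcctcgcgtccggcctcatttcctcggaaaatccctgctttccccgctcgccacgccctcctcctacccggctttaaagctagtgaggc
IRF1: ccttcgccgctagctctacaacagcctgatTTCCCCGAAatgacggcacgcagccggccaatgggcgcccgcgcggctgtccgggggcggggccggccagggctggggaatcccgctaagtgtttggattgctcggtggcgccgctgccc

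The IFIH1 promoter held 4 matches to the interferon response core, at -164 to -156, -158 to -150, -152 to -144 and -21 to -13, where -1 is the base before the start site. The first 3 overlap each other and form a single run. At least 1 match occurred in 8.11% of the 35116 promoters of the table, at least 3 in 0.0883%, and 4 in 1 promoter, that of IFIH1. None of the other 5 promoters held this core. The STAT core was found at -124 to -116 of IRF1 (TTCCCCGAA) and at -63 to -55 of IRF9 (TTCTGGGAA), and in 7.66% of all promoters. A GC box (GGGCGG or CCGCCC, the element of SP and KLF factors) occurred in all 6 promoters and in 45.0% of the table. The CCAAT box (CCAAT or ATTGG) occurred in 3, MAVS, IRF1 and STAT2, against 34.6% of the table. No match to the ETS core CCGGAAG (10.3% of promoters), the GATA core AGATAA (10.3%) or the CRE element TGACGTCA (1.85%) was found on either strand. Over the 21579 coding promoters of the table, the shares were 7.07% for the interferon response core, 6.79% for the STAT core and 56.8% for the GC box. They were 34.9% for the CCAAT box and 12.9%, 7.85% and 2.28% for the ETS, GATA and CRE elements. All these matches are letters and not measured binding sites.

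The peak lists as a whole held 23413 peaks in the control, 23819 in hairpin 1 and 27007 in hairpin 2, over 52148389, 54413373 and 61890273 bp. Sequencing depth is not given in the sources used here. Each peak carries the authors' score, which started at 50 in every list. Ranks are given as the percentile of the score, the share of peaks of the same list with a lower score. Of 10 marker genes of K562 and the erythroid lineage, 6, 6 and 5 had a promoter peak in control, hairpin 1 and hairpin 2, while HBE1, HBG1, HBG2 and GATA1 had none in any list. Of 20 markers of fibroblasts, epithelia, lymphocytes and monocytes, 5 of each, COL1A1, EPCAM, CD3D, CD79A, LYZ and ITGAM had a promoter peak in some list. By control, hairpin 1 and hairpin 2, the counts were 0, 1 and 1 for fibroblasts, 1, 1 and 1 for epithelia, 0, 2 and 0 for lymphocytes and 1, 2 and 1 for monocytes. Their part in the results was not tested. The promoter of TFAM itself had a peak of 2983, 2787 and 2447 bp, which does not measure the knockdown.

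A promoter peak, meaning one that comes within 1 kb of the start site, was present in every list at 5 of the 9 genes: IFIH1, MAVS, IRF3, STAT2 and IRF9. Of all protein-coding promoters 50.3% were in that class, so the members were close to the background. The promoter of STING1 was missing from hairpin 1 alone, as were 1.34% of all promoters. Those of RIGI and IRF1 were missing from hairpin 2 alone, as were 1.21%. CGAS lacked a promoter peak throughout, a class that held 41.4% of promoters. No member was in the classes gained (both hairpins and not the control, 1.53% of promoters) or lost (the control alone, 0.829%). With the higher-scoring 50% of each list, IFIH1 became lost, IRF9 gained and RIGI absent from every list. The control peak of IRF9, at percentile 49.6, fell just under that cut. The shares of all coding promoters in these classes were not computed for the higher-scoring 50%.

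**Figure D1:**
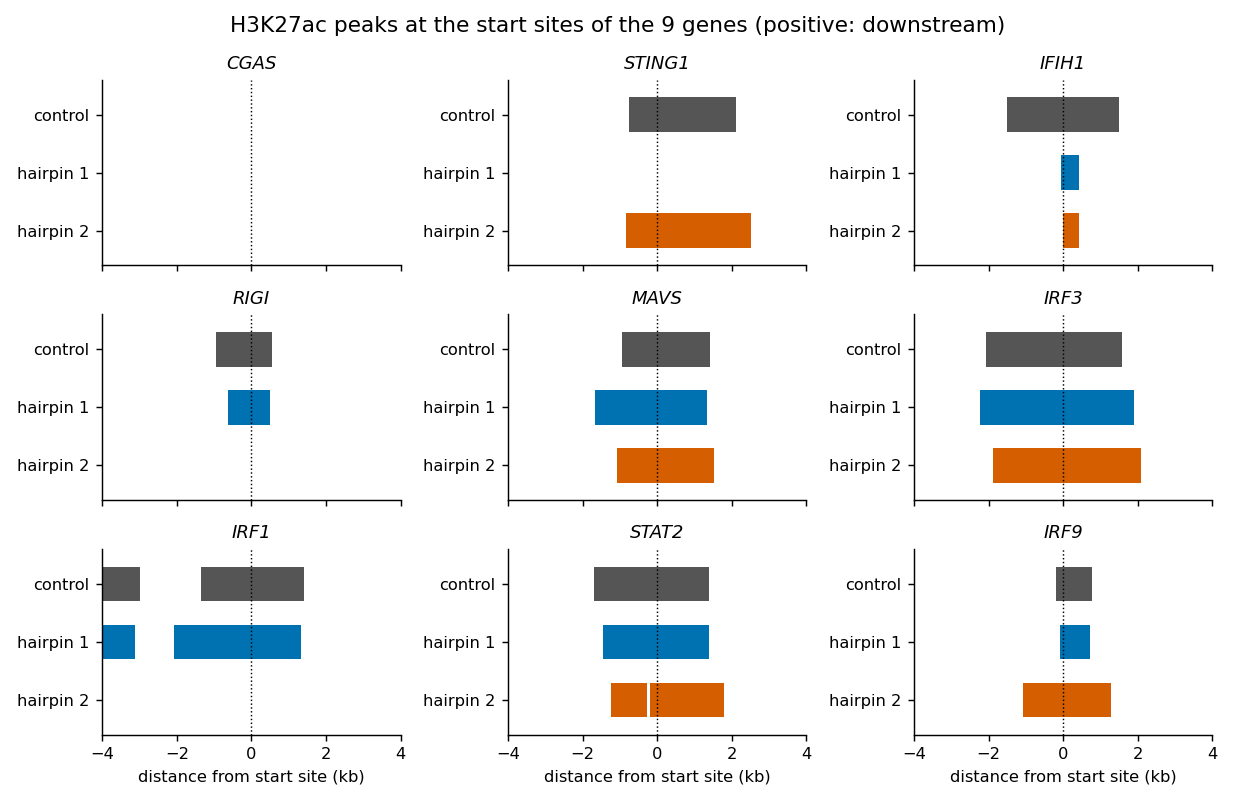
Listed H3K27ac peaks around the start site of each gene, drawn as bars by distance from the start site in kb (positive is downstream) for control, hairpin 1 and hairpin 2. The IFIH1 peak spanned 3013 bp in the control and 471 and 426 bp in the hairpin libraries, and STING1, RIGI and IRF1 each lacked a promoter peak in 1 library.

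By score percentile in the control list, the promoters ranked in the order IRF3 (83.1), STAT2 (81.2), IFIH1 (79.9), STING1 (73.4), IRF1 (72.7), MAVS (61.05), IRF9 (49.6) and RIGI (36.75). The median of promoters with a peak in every list was 78.1, so IRF3, STAT2 and IFIH1 stood above it and the others below. Without replicates, no neighbours in this order can be told apart. In hairpin 1 the order was led by IRF3 (78.1), MAVS (70.1) and STAT2 (70.1) and ended with IFIH1 (5.19). In hairpin 2 it was led by IRF3 (85.3) and STING1 (84.3) and again ended with IFIH1 (14.4).

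**Figure D2:**
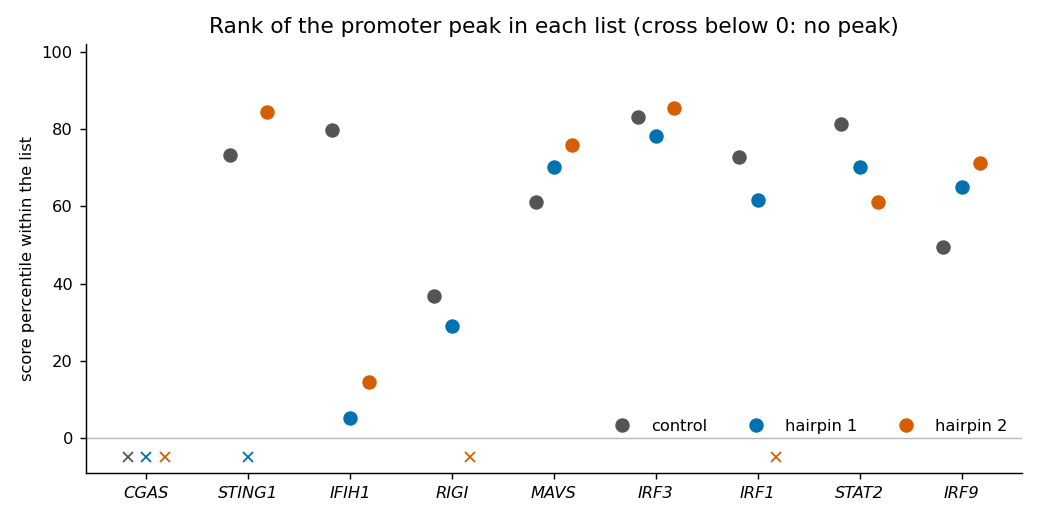
Score percentile of the promoter peak within each list, by gene, with a cross below 0 where the list had no promoter peak. IFIH1 went from 79.9 in the control to 5.19 and 14.4, whereas IRF3 lay between 78.1 and 85.3 in all 3 lists.

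In the DNA-sensing branch, CGAS (chromosome 6, 74123238 to 74162020, minus strand) had no peak at its start site, but its window held 2 regions present in every list. The first overlapped an annotated exon near the 3′ end, 28541 bp downstream of the start site (74131051 to 74133479), where the control peak measured 2355 bp and those of hairpins 1 and 2 measured 1801 and 2239 bp. Its score percentiles of 67.6, 66.9 and 70.1 were close together. The second was the promoter of the neighbour MTO1, a mitochondrial tRNA-modifying enzyme, 7586 bp upstream of CGAS, with peaks of 2440, 3574 and 2677 bp. The absence of a listed peak at the CGAS start site does not show that it was unmarked.

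STING1 (chromosome 5, 138855118 to 138862520, minus strand) had a promoter peak of 2849 bp in the control at percentile 73.4. Hairpin 2 had one of 3356 bp at percentile 84.3, so it was wider and ranked higher there. In hairpin 1 there was no peak in the whole window, and the nearest was 12324 bp from the start site. Of 1844 promoters whose control percentile lay within 5 points of that of STING1, 1.57% had no promoter peak in hairpin 1. A second region at the 3′ end of STING1 (138852471 to 138856567), which touches the promoter of the annotated coding gene AC138517.1, was listed in the control alone, over 4097 bp but at a percentile of only 6.61. The hairpin libraries therefore differed from each other at the STING1 promoter.

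The RNA sensor IFIH1 (chromosome 2, 163123584 to 163175194, minus strand) showed the largest difference in width among the 5 members with a promoter peak in every list. Its control peak ran from 1518 bp upstream to 1494 bp downstream of the start site, 3013 bp in all, at percentile 79.9. In hairpin 1 the peak spanned 471 bp, from 54 bp upstream to 416 bp downstream, at percentile 5.19. In hairpin 2 it spanned 426 bp, from 8 to 433 bp downstream, at percentile 14.4. The peak was thus 6.4-fold narrower in hairpin 1 and 7.07-fold narrower in hairpin 2 (log2 ratios of -2.68 and -2.82). The control peak also overlaps annotated exons of the divergent neighbour GCA, so its width cannot be assigned to IFIH1 alone. The hairpin 2 peak lay within the first exon of IFIH1 and the hairpin 1 peak reached 54 bp beyond it. The run of response cores at -164 to -144 was inside the control peak and outside the peak of both hairpins, and the core at -21 to -13 was inside the control and hairpin 1 peaks only. This follows from peak width alone: any element more than 54 bp upstream lies outside both hairpin peaks. The GC box at -107 to -102 is another such element.

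Among the 10143 promoters with a peak in every list, a width at least 1.5-fold below that of the control was found in 4.46% for hairpin 1, in 2.28% for hairpin 2 and in 0.67% for both. IFIH1 was the only one of the 5 members in any of these classes. No other of the 10143 promoters was as narrow relative to the control in both hairpins. Of the 3468 promoters whose control width was within 20% of that of IFIH1, the median widths were 2952 bp in hairpin 1 and 3106 bp in hairpin 2. IFIH1 alone was under 500 bp in both, a limit that lies just above its own 471 and 426 bp. The promoter was somewhat poor in G+C, with 50.2% within 1 kb of the start site against a median of 55.9% over all coding genes. Over the 1532 promoters within 2 points of that G+C, the median log2 width ratios were -0.06 and 0.04, and 1.24% were at least 1.5-fold narrower in both hairpins. By rank, both hairpin peaks were among the lower-scoring peaks of their own lists, and the control peak was not.

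**Figure D3:**
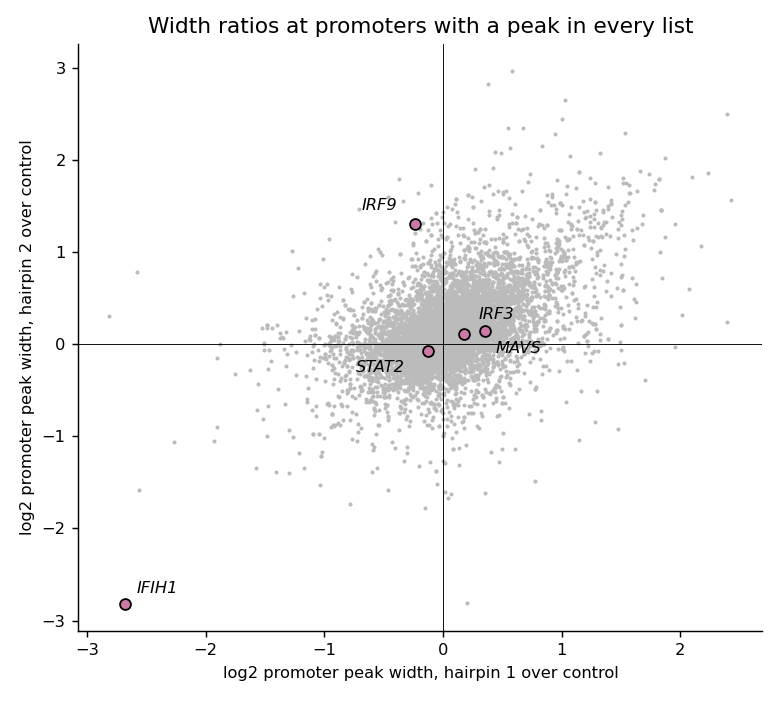
Log2 ratio of promoter peak width in hairpin 1 over control (x axis) against hairpin 2 over control (y axis) for the 10143 promoters with a peak in every list (grey), with the 5 members in that class named. Both axes share the control library, so points tend toward the diagonal, and IFIH1 lies at -2.68 and -2.82.

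RIGI (formerly DDX58, chromosome 9, 32455300 to 32526206, minus strand) had the lowest-ranked promoter peak of the members in the control. It spanned 1507 bp at percentile 36.75 in the control and 1133 bp at percentile 29.01 in hairpin 1. Hairpin 2 had no peak in the window, and its nearest was 24001 bp from the start site. Of 467 promoters with a control percentile within 5 points of that of RIGI, 11.6% had no promoter peak in hairpin 2. With 45.3% G+C within 1 kb of the start site, RIGI was the member poorest in G+C, at percentile 13.6 of all coding genes.

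MAVS, the adaptor below both RNA sensors (chromosome 20, 3827446 to 3856770, plus strand), was wider in both hairpins but not past 1.5-fold. Its peak measured 2364 bp in the control against 3017 and 2606 bp in the hairpin libraries, with score percentiles of 61.05, 70.1 and 75.8. The median percentiles of all promoters in every list were 78.1, 79.3 and 81.7. The log2 width ratios of MAVS were 0.35 and 0.14, where the medians of all promoters in every list were 0.04 and 0.11. No other peak was listed in its window.

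Among the transcription factors, IRF3 (chromosome 19, 50162826 to 50169132, minus strand) differed least in score percentile, which stayed between 78.1 and 85.3. Its promoter is divergent and shared with BCL2L12, so a single peak served both genes, of 3667 bp for the control, 4143 bp for hairpin 1 and 3962 bp for hairpin 2. By the 3 score percentiles, BCL2L12 was accordingly the gene most like IRF3, at a distance of 0.0 points. The other region in its window was the promoter of PRMT1, an arginine methyltransferase, present in every list with 3963, 4190 and 4581 bp.

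STAT2 (chromosome 12, 56735381 to 56753987, minus strand) had a promoter peak of 3097 bp in the control and 2842 bp in hairpin 1. In hairpin 2 the same stretch held 2 peaks of 1987 and 963 bp separated by 99 bp, just upstream of the start site. The summed widths gave log2 ratios of -0.12 and -0.07. The joined region also overlaps annotated exons of APOF, so these widths cannot be assigned to STAT2 alone. The score percentile went from 81.2 in the control to 70.1 in hairpin 1 and 61.1 in hairpin 2. ARAP1 was the gene closest to it by percentile, at a distance of 2.25 points over the 3 lists, while the nearest to IFIH1 was KAZALD1 at 18.5 points. At the far end of the STAT2 window, the joint promoter region of PAN2 and IL23A was listed with 6094, 5839 and 5839 bp.

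IRF9 (chromosome 14, 24630443 to 24637252, plus strand), the DNA-binding partner of STAT2, had narrow promoter peaks of 956 bp in the control and 814 bp in hairpin 1. In hairpin 2 the peak spanned 2350 bp, 2.46-fold that of the control. The hairpin 2 peak also overlaps exons of RNF31 and of the coding gene model ENSG00000259529, so its width cannot be assigned to IRF9 alone. All 250 bases upstream of the start site are exonic in some gene model. The control and hairpin 1 peaks also begin upstream of the annotated IRF9 gene, so the same limit holds for them. A width at least 1.5-fold above the control was found in 11.0% of promoters for hairpin 2 and in 7.91% for hairpin 1, and IRF9 in hairpin 2 was the only such case among the 5 members. Its score percentile was higher in both hairpins, at 49.6, 64.95 and 71.3. The median over all promoters in every list was also higher in both, at 78.1, 79.3 and 81.7. The STAT core at -63 to -55 was inside the peak of every list. Its promoter had the fewest CpG dinucleotides for its base composition, with an observed-to-expected ratio of 0.179 where the median over all coding genes was 0.635.

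IRF1 (chromosome 5, annotated from 131776132 to 131844411, minus strand, start site of the canonical transcript at 131826465) had the most peaks. The control promoter peak spanned 2756 bp at percentile 72.7 and that of hairpin 1 3402 bp at percentile 61.6. A second peak stood upstream, 2979 bp from the start site, with 4695 bp in the control and 4464 bp in hairpin 1. Hairpin 2 had neither. The STAT core at -124 to -116 was therefore inside a listed peak in the control and hairpin 1 only.

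Of 1813 promoters with a control percentile within 5 points of that of IRF1, 1.99% had no promoter peak in hairpin 2. The promoter and upstream peaks, joined across a gap of 1624 bp in the control and 1065 bp in hairpin 1, spanned 9075 and 8931 bp. Both spans exceed 8841 bp, the width of the widest peak in the hairpin 2 list. Such spans, with peaks up to 2 kb apart joined, were found at 12 of the 244 promoters missing from hairpin 2 alone (4.92%) and at 21 of the 10143 present in every list (0.207%). The widest peaks of the control and hairpin 1 lists measured 8704 and 8781 bp. Each IRF1 span thus also exceeded the widest peak of its own list. Whether domains wider than these widest peaks were left out of any list was not tested. RIGI and STING1 spanned no more than 2849 bp.

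**Figure D4:**
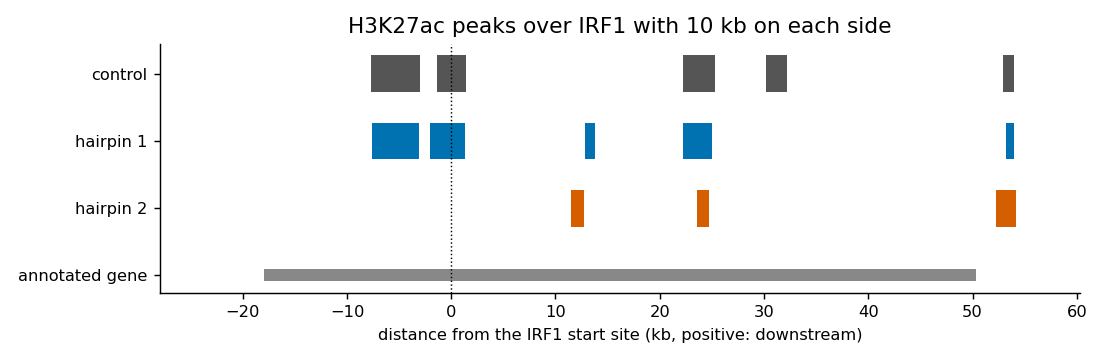
Listed peaks over the annotated IRF1 gene with 10 kb on each side, by distance from the start site in kb (positive is downstream), in the 3 libraries. Hairpin 2 lacked the promoter peak and the peak upstream of it, and had 3 peaks farther downstream, of 1285, 1137 and 1874 bp.

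Downstream of the IRF1 start site, 5 intronic regions were listed in the window. One at 131801145 to 131804265 was present in every list, with 3121 bp for the control and 2789 and 1137 bp for the hairpins. Another at 131772344 to 131774217, in the flank beyond the annotated 3′ end and present in every list too, had 998, 821 and 1874 bp. A region of 1951 bp at 131794296 to 131796246 was listed in the control alone. Hairpin 1 and hairpin 2 each had a peak of their own, of 970 and 1285 bp, 33 bp apart from each other and with no control counterpart. All 5 lie within an intron of an overlapping coding gene model (ENSG00000283782), so they cannot be assigned to IRF1. With windows drawn on canonical transcripts, 1 region in place of 2 was lost over all members.

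Over all 9 windows, 19 regions had a peak in some list, of 33834 in the genome. In every list 11 of the 19 were present, where 49.9% of all regions were. No region was gained in both hairpins (5.91% of all regions) and 2 were lost, the intronic IRF1 region and the distal STING1 region (7.05%). By gene, 2 of 9 windows held a lost region and none a gained one. Over all protein-coding genes 7.86% of windows held a lost region and 8.92% a gained one. Of the 19 regions 8 were promoters of members, 4 promoters of other coding genes, 2 exonic and 5 intronic.

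The windows together held 45767 bp of peaks for the control, 35618 bp for hairpin 1 and 30213 bp for hairpin 2. The log2 ratios to the control were -0.36 and -0.60, while those of the whole lists were 0.06 and 0.25. Most of the difference lay in 3 genes: STING1 went from 6946 to 0 and 3356 bp in the hairpins, IRF1 from 13521 to 12446 and 4296 bp, and IFIH1 from 3013 to 471 and 426 bp. RIGI went from 1507 to 1133 and 0 bp, while IRF9 went from 956 to 814 and 2350 bp and MAVS from 2364 to 3017 and 2606 bp. The rest differed little, with CGAS at 3828, 4216 and 3646 bp, STAT2 at 9191, 8681 and 8789 bp and IRF3 at 4441, 4840 and 4744 bp. With the higher-scoring 50% of each list, the hairpin 1 ratio turned to 0.18, and with a flank of 25 kb it was -0.08.

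A list of 87 other genes of the same pathways was read in the same way. Of these, 45 had a promoter peak in every list (51.7%, against 50.3% of all coding genes), 1 was gained (1.53% of all coding promoters were), 5 were lost (0.829%) and 29 were without one in all lists (41.4%). Outside those classes were AIM2, IFIT1, OAS3 and USP18, absent from hairpin 1 alone, TRIM25 and RNF5, absent from hairpin 2 alone, and NLRX1, present in hairpin 2 alone, all named after their values were seen. Among the 45, the median log2 width ratios were 0.01 and 0.09, and 1 was at least 1.5-fold narrower in both hairpins. That one was TBK1, the kinase that phosphorylates IRF3, with 8002, 3332 and 3991 bp, named after its values were seen. Its percentile went the other way, from 14.8 to 78.5 and 85.6, so a narrower peak was not always a lower-ranked one.

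The receptor and kinase steps were mostly marked: 9 of 10 promoters of the receptor and JAK-STAT role had a peak in every list. Of all coding promoters 50.3% did. IFNAR1, a type I interferon receptor chain, had 2443, 2454 and 2462 bp. IFNGR2, a chain of the interferon gamma receptor, had 1962, 2631 and 1724 bp.

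Enzymes that remove or edit self nucleic acid were equally present, with 9 of 10 in every list, against 50.3% of all coding promoters. SUPV3L1, a helicase that takes part in the breakdown of mitochondrial RNA, had 3214, 2800 and 2939 bp. ADAR, which edits double-stranded RNA, had 2474, 2002 and 2556 bp, and RNASEH2B, a subunit of ribonuclease H2, had 3278, 3196 and 2939 bp.

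Other sensors had 4 of 10 promoters in every list, against 50.3% of all coding promoters. Among the 4 were DDX41 (2279, 2600 and 2630 bp), the RNA-activated kinase gene EIF2AK2 (1710, 1852 and 1780 bp) and DHX58 (1272, 1691 and 893 bp), a relative of RIGI that lacks signalling domains. IFI16, a nuclear DNA sensor, was lost, from a control peak of 840 bp at percentile 5.33. Adaptors and kinases had 7 of 10 in every list, against the same 50.3%. Of the 7, TANK (3437, 2341 and 3024 bp), TRAF6 (2775, 2686 and 3004 bp) and TRAF3 (2480, 2732 and 2953 bp) ranked highest in the control. IKBKG, a subunit of the IKK complex, was lost from 4666 bp at percentile 41.35. IKBKG has a near-identical copy nearby, and only reads that fitted 1 place were kept in each library, so its values are uncertain in all 3 lists.

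Of 6 other interferon regulatory factors, 3 had a promoter peak in every list, among them IRF2 (4104, 3714 and 4031 bp) and IRF7 (1478, 2037 and 1618 bp). The other 3 had none. None of the 7 interferon genes IFNB1, IFNA1, IFNA2, IFNE, IFNK, IFNL1 and IFNG had one. Of all coding promoters 50.3% had a peak in every list and 41.4% had none in any list. Negative regulators had 6 of 10 in every list, against the same 50.3%, led by TRIM27 (4052, 3508 and 4049 bp), PTPN11 (2583, 2725 and 2421 bp) and the cytokine signalling inhibitor gene SOCS3 (2466, 2511 and 2817 bp).

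Interferon-stimulated effectors act against viral replication in the cell. Of 24, 7 had a promoter peak in every list, 11 in none, 3 were lost, 2 were absent from hairpin 1 alone and 1 was gained. Over all coding promoters these classes held 50.3%, 41.4%, 0.829%, 1.34% and 1.53%. The lost promoters were those of SAMD9 (911 bp at percentile 33.2), its neighbour SAMD9L (1873 bp at percentile 54.4), both of which restrict poxviruses, and the membrane protein gene IFITM3 (4144 bp at percentile 40.6). IFITM3 has close paralogs beside it, so its values are likewise uncertain in all 3 lists. IFI27 was gained, with peaks of 830 bp at percentile 20.7 in hairpin 1 and 903 bp at percentile 30.3 in hairpin 2. IFIT3 (2338, 1653 and 2968 bp), BST2 (5097, 5127 and 5644 bp) and ISG15 (1854, 1865 and 2249 bp) had a peak in every list. Motif counts cover only promoters with a RefSeq sequence. The interferon response core occurred in 15 of 19 such effector promoters and in 24 of 67 over the whole list, against 8.11% of all promoters. Of the 5 lost promoters of the list 2 held it, IFITM3 and SAMD9. So did 9 of 34 with a sequence in every list, 9 of 21 in no list and 3 of 3 absent from hairpin 1 alone. USP18, also absent from hairpin 1 alone, had no sequence.

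**Figure D5:**
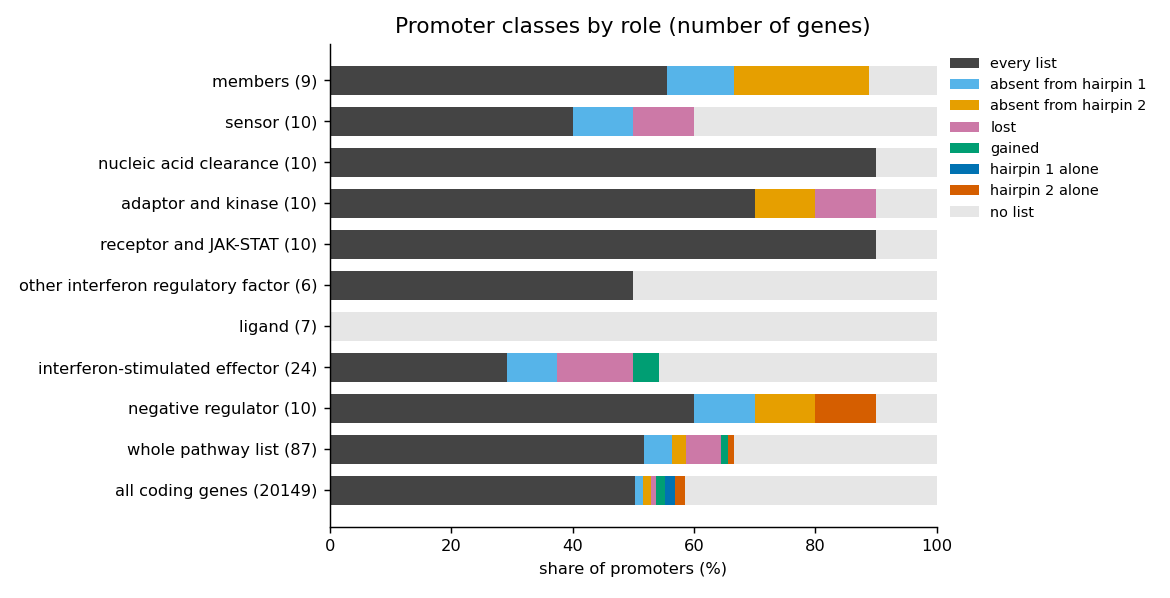
Share of promoters (%) in each class of peak presence, for the members, each role of the pathway list, the whole list and all coding genes, with the number of genes in brackets. Receptor and JAK-STAT genes and nucleic acid clearance genes had 9 of 10 promoters in every list, the 7 interferon genes had none in any list, and 3 of 24 effectors were listed in the control alone. Over all coding genes these classes held 50.3%, 41.4% and 0.829%.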

How the data were processed

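H3K27ac ChIP-seq peak lists of 3 K562 libraries were used, 1 per group, grouped by sample title. Reads that fitted 1 place in hg19 were kept, per the labels' protocols. The submitters' processing notes list Bowtie 0.12.7 and Picard but give them no role. Peak caller settings, input use and sequencing depth are not given in the sources used here, and the input library was not analysed here. The deposited score per peak is the authors' value and was used as a percentile within a list, ties sharing a rank. Start and end of each peak are as deposited.

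Gene models were those of GENCODE 44 lifted to GRCh37, each with its canonical start site. Peaks overlapping by 1 bp were joined into regions. Promoters had 1 kb on each side and windows 10 kb. Width is the sum of peaks touching a promoter, so it moves with depth and peak calling. The members, lists and rules were chosen with earlier results of these data known. Named genes of the pathway list were those gained or lost and, per role, the 3 of highest control percentile in every list, except that some are not reported here. For likeness, the nearest gene in the 3 promoter percentiles was named for the 3 members of highest control percentile in every list. Planted classes came out at all 15387 simulated promoters of the coding genes. These peaks were centred on start sites kept far apart, so shared, split or off-centre peaks were not tried. Alternatives were wider promoters, all basic start sites, other flanks, other joining rules, the higher-scoring 50% of each list and equal list lengths. Windows on canonical transcripts were added after seeing the data. Python 3.11.15, numpy 2.4.6, pandas 2.3.3 and matplotlib 3.10.9 were used.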

Additional observations from a re-analysis of the deposited data

How the results depend on the processing

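Members in every list numbered 5 under all alternatives run except the higher-scoring 50% of each list, which left 3. In that setting 2 member promoters were classed as lost or gained, IFIH1 as lost and IRF9 as gained, against 0 with all peaks. For IRF9 the control peak, at percentile 49.6, fell just under the cut, and both hairpin peaks stayed. For IFIH1 both hairpin peaks, at 5.19 and 14.4, fell under it. It also gave 1 gained and 1 lost region in the member windows (0 and 2 with all peaks), 7 regions in every list (11), 5 gained promoters of the pathway list (1) and a hairpin 1 total 0.18 above the control on the log2 scale (-0.36). Shares over all coding promoters and all regions were not computed for that setting, so these counts cannot be read against a background. Regions in every list numbered 23 with a flank of 25 kb and 7 with no flank. Joining peaks within 1 kb gave 1 gained region, made of the hairpin 1 and hairpin 2 intronic IRF1 peaks that lie 33 bp apart. Canonical transcripts, an alternative chosen after seeing the data, gave 1 lost region (fewer bases searched at IRF1). The causes of the other changes were not tested. The hairpin 2 total stayed below the control in every setting run, from -0.828 to -0.158 on the log2 scale. Apart from the reversal, the hairpin 1 total ranged from -0.386 with no flank to -0.08 with a flank of 25 kb. No paired analysis was possible because each group had 1 library. The limit throughout is that peak presence and width depend on a depth and a caller threshold that are not known.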
